A study of Homo sapiens with 9 samples.

Results

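Described here are 10 genes of the NF-kB pathway: the subunits NFKB1, NFKB2, REL, RELA and RELB, the inhibitors NFKBIA, NFKBIE and TNFAIP3, and the target genes BIRC3 and ICAM1. They were chosen by name, with earlier results of these data known, so shares over all genes are no independent base for their counts. Every probe set annotated to exactly 1 gene, that gene being a member, was read on all 9 arrays. This gave 20 probe sets for 9 genes, of 41091 single-gene probe sets for 19775 genes in all. The annotation used here lists no probe set under BIRC3, which was not analysed here. The arrays (Affymetrix HG-U133 Plus 2.0) measured total RNA of PANC-1, an established human pancreatic adenocarcinoma cell line, after 72 hours in a medium with charcoal-filtered serum. There were 3 arrays for cells in DMSO vehicle, 3 for TVB-3166 at 0.1 µM and 3 for TVB-3166 at 1.0 µM, and the compound, named as TVB3166 in the sample titles, is an inhibitor of fatty acid synthase. All groups share the cell line, the medium and the vehicle. The concentration of DMSO is given as 0.05% in one field and 0.5% in another. Arrays were grouped by title. For the arrays titled 1.0 µM the treatment field gives 0.1 µM, and the description of 0.1 µM replicate 1 names DMSO alone. Treatments were made in triplicate, and nothing states that the replicates are separate cultures, so p-values measure only the spread between these arrays, which may be technical.

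NF-kB factors are dimers of related proteins. In the canonical pathway, dimers of RELA or REL with the processed product of NFKB1 are held in the cytoplasm by IkB proteins, and an activated IkB kinase marks the IkB protein for degradation, which frees the dimer to enter the nucleus. In the non-canonical pathway the NFKB2 precursor is processed, and its product acts mainly with RELB. Several target genes feed back: NFKBIA and NFKBIE encode IkB proteins, and TNFAIP3 encodes A20, a ubiquitin-editing enzyme that shuts off signalling upstream of the kinase. Many pancreatic carcinomas show NF-kB activity.

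Of the 9 measured genes, 6 rose and 0 fell at each dose of TVB-3166 against DMSO: NFKB2, RELB, NFKBIA, NFKBIE, TNFAIP3 and ICAM1. The canonical subunit genes NFKB1, REL and RELA did not pass the test at either dose. At 1.0 µM the rises ran from 0.97 ± 0.12 for NFKBIA to 2.16 ± 0.15 for ICAM1, as log2 change with the standard error from limma and 3 arrays in each group. Of all 13948 tested genes 12.3% were called higher and 11.0% lower at 1.0 µM, and 6.89% higher and 5.11% lower at 0.1 µM. All treated arrays lay above all DMSO arrays for 6 of the 9 genes at 1.0 µM and for 7 at 0.1 µM, where NFKB1 was added, and for 19.2% and 15.5% of all tested genes. The median change over the 9 genes was 1.16 at 1.0 µM and 0.94 at 0.1 µM, beside medians of 0.01 and -0.01 over all tested genes. Changes are differences between group means of log2(signal + 16), where the signal is the deposited MAS5 intensity on a linear scale. The added 16 makes the log2 difference of a pair of signals smaller. As logs are averaged, a fold can still exceed the ratio of mean signals. For NFKB2 at 1.0 µM these were 3.03 and 3.02. Genes with an adjusted p under 0.05 count as called (limma's moderated test, two-sided, Benjamini-Hochberg over all tested genes). Both comparisons use the same DMSO arrays, so they are not independent of each other.

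The 250 bases upstream of the transcription start show what some of these genes share apart from their response, and are printed for genes that rose (NFKBIA, TNFAIP3, NFKB2, ICAM1) and for genes that were not called (NFKB1, REL). They come from RefSeq on GRCh38.p14, 5′ to 3′ on the gene's strand. Of the measured genes, 7 have such a window; RELB and NFKBIE were not searched. The NF-kB consensus (the kappa B element of 10 bases) was searched on both strands, with overlapping matches kept. It occurred in 5 of these 7 genes, in 6 of their 11 windows, beside 11.8% of all 27305 genes and 9.96% of all 35116 windows of the same length. Capitals mark consensus matches, except in ICAM1, where they mark a run described next.
NFKBIA, chr14:35404750-35404999, minus strand: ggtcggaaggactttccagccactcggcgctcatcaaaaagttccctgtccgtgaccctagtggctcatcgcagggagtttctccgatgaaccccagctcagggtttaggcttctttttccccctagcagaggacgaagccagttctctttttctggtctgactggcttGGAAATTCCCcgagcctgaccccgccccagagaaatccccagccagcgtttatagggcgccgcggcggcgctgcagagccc
TNFAIP3, chr6:137867009-137867258, plus strand: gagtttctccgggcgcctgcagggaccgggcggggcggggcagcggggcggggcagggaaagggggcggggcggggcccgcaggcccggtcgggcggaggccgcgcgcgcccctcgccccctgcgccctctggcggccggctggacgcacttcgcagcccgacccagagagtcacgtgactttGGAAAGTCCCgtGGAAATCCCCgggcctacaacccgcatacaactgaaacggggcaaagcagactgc
NFKB2, chr10:102394328-102394577, plus strand: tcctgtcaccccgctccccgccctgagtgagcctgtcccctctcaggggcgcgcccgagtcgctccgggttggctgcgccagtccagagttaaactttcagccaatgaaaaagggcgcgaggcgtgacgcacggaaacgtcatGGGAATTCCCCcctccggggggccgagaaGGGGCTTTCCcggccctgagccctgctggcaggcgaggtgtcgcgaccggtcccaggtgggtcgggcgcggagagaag
ICAM1, chr19:10270870-10271119, plus strand: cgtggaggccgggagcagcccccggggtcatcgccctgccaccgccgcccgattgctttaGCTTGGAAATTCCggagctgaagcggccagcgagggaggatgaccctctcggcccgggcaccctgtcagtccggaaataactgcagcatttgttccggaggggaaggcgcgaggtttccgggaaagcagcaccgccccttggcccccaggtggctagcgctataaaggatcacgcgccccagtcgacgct
NFKB1, chr4:102501109-102501358, plus strand: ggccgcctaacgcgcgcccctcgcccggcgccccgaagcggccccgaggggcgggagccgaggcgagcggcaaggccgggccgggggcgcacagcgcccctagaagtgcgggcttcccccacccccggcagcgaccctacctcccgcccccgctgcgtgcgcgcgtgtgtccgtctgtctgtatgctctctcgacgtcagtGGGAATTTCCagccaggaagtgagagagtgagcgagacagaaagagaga
REL, chr2:60881324-60881573, plus strand: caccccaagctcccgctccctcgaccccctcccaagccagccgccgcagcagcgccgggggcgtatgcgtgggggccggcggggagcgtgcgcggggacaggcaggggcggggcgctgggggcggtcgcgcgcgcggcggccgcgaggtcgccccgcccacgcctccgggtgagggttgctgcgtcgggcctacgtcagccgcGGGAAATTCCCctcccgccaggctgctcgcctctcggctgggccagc

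In the windows shown, the match of NFKBIA lies 81 to 72 bases before the start. Those of TNFAIP3 lie at 67 to 58 and at 55 to 46 bases, and that of NFKB1 at 49 to 40 bases. The other NFKB1 window holds no match. In REL they span bases 47 to 37, as overlapping matches of both strands. NFKB2 has 3 windows, and the one shown holds matches from base 107 to 97 and from 78 to 69. Another NFKB2 window also holds matches, and the remaining one holds none. For NFKB1 and NFKB2 the window printed is thus one with matches. The 2 windows of RELA held none, and neither did that of ICAM1. ICAM1 and NFKBIA share an unbroken run of 13 bases, the longest they have in common. ICAM1 carries it 190 to 178 and NFKBIA 85 to 73 bases before the start. In NFKBIA this run overlaps the consensus match at bases 81 to 72. ICAM1 thus carries that match except for its last base, and the search, which required all 10 bases, did not count it. The run was sought after the windows were read and was taken from the windows of these genes, so its presence in both was fixed in advance. Of the 35116 windows, these 2 alone hold it on either strand. How many windows hold other runs of 13 bases was not tested, so this count says nothing particular about the run. A match is a description of letters, and its absence says only that these letters are not in that window. Matches were present in genes that rose and in NFKB1 and REL, which were not called.

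NFKB2, the precursor of the p52 subunit, had signals of 274, 361 and 529 in DMSO, 870, 763 and 865 at 0.1 µM, and 1131, 1295 and 1083 at 1.0 µM (replicates 1 to 3). All arrays of each dose lay above all DMSO arrays, and those of 1.0 µM above those of 0.1 µM. The change was 1.12 ± 0.19 at 0.1 µM (adjusted p = 0.00195, limma) and 1.60 ± 0.19 at 1.0 µM (adjusted p = 6.89e-05, limma). The DMSO arrays were spread widely, with a mean of 388 and an SD of 130 (n = 3). The other NFKB2 probe set above the filter on dim signals rose by 0.83 ± 0.18 and 1.06 ± 0.18 at the lower and higher dose. The remaining NFKB2 probe set, under that filter, ranged from 5.3 to 39.1 over the 9 arrays and was not tested.

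RELB, the usual partner of p52, was measured by 1 probe set with signals of 186, 274 and 273 in DMSO. Its signals were 565, 548 and 461 at 0.1 µM and 760, 916 and 638 at 1.0 µM. The 3 groups did not overlap, in the order of dose. RELB rose by 1.07 ± 0.17 at 0.1 µM (adjusted p = 0.00164, limma) and by 1.60 ± 0.17 at 1.0 µM (adjusted p = 4.05e-05, limma). Among all 13948 tested genes ranked by change at 1.0 µM, RELB was at rank 109 and NFKB2 at rank 112 from the top.

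The subunit genes of the canonical pathway gave other values. NFKB1, which encodes the p105 precursor of p50, had 885, 959 and 859 in DMSO, 1040, 1035 and 1046 at 0.1 µM, and 1018, 1228 and 953 at 1.0 µM. The arrays of 0.1 µM lay just above those of DMSO, while those of 1.0 µM overlapped them. Its change was 0.21 ± 0.11 at 0.1 µM (95% interval -0.03 to 0.44) and 0.23 ± 0.11 at 1.0 µM (0.00058 to 0.46), with adjusted p of 0.259 and 0.143 (limma); the unadjusted p at 1.0 µM was 0.0495. RELA, the p65 subunit with the main activating domain, had 2466, 2805 and 3734 in DMSO, 3655, 3136 and 3246 at 0.1 µM, and 3135, 4564 and 2937 at 1.0 µM. The groups overlapped, and DMSO replicate 3 and 1.0 µM replicate 2 were the highest arrays. For RELA the change was 0.17 (-0.21 to 0.56) at 0.1 µM and 0.23 (-0.15 to 0.61) at 1.0 µM, with adjusted p of 0.596 and 0.392 (limma).

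REL, which encodes c-Rel, a subunit best known from lymphoid cells, has 5 probe sets above the filter, and 0 of them were called at either dose. The probe set with the highest mean had 452, 469 and 651 in DMSO, 416, 466 and 427 at 0.1 µM, and 528, 516 and 471 at 1.0 µM. DMSO replicate 3 was the highest array, and each dose overlapped DMSO. Its change was -0.24 (95% interval -0.55 to 0.07) at 0.1 µM and -0.04 (-0.34 to 0.27) at 1.0 µM, with adjusted p of 0.331 and 0.901 (limma). Over all REL probe sets the changes lay between -0.24 and -0.02 at 0.1 µM and between -0.08 and 0.17 at 1.0 µM. By limma, 0 of the 8 probe sets of NFKB1, REL and RELA also passed an unadjusted p under 0.05 at either dose in the fit of single probe sets. The intervals still allow moderate changes, so these genes were not shown to stay level. The difference in response between the subunit genes that rose and those that did not was not tested.

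**Figure D1:**
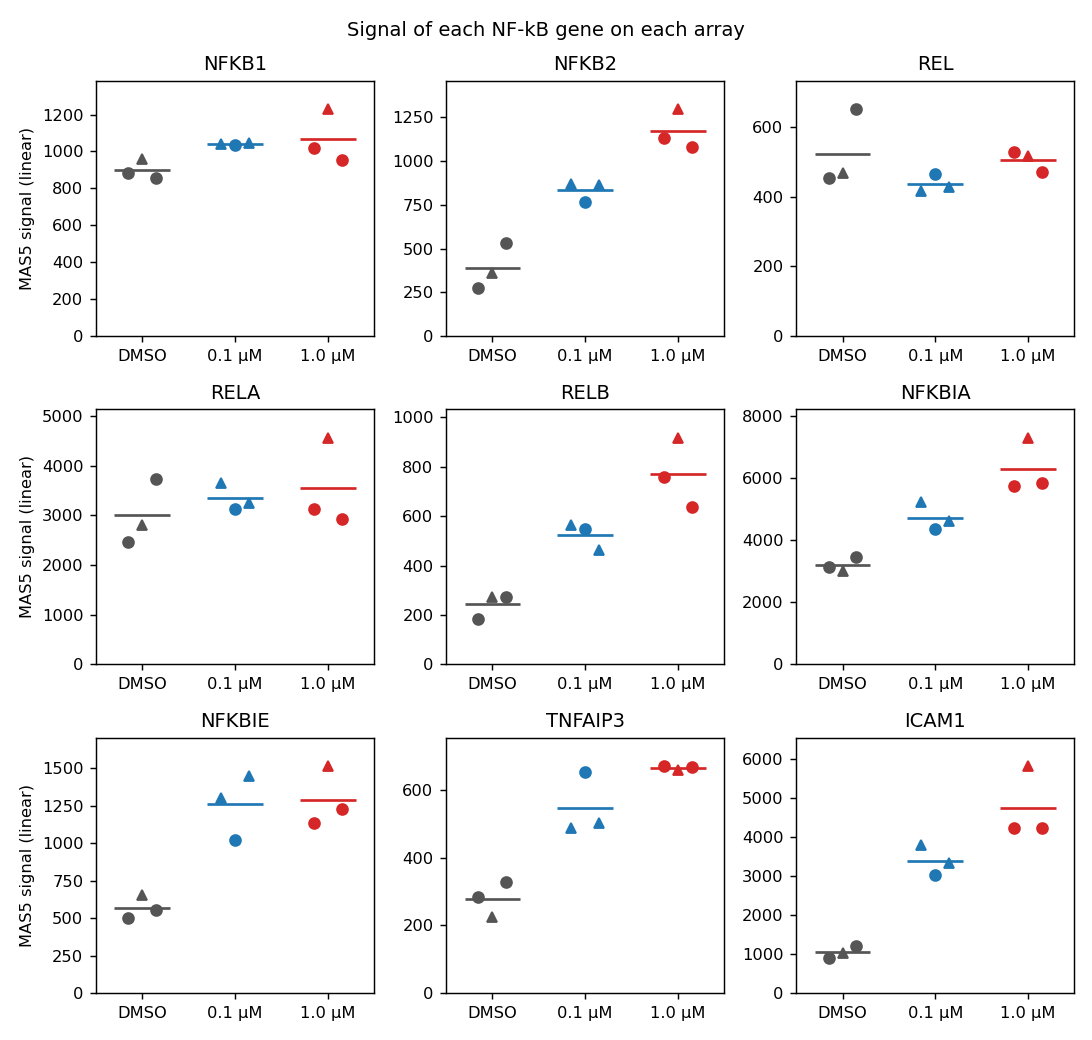
MAS5 signal (linear axis from 0) of the probe set that stands for each gene, by group; each point is an array, lines are group means (n = 3), and triangles are the 4 arrays with the higher signal of hybridisation spikes. Arrays of both doses lie above all DMSO arrays for NFKB2, RELB, NFKBIA, NFKBIE, TNFAIP3 and ICAM1, while those of REL and RELA overlap DMSO at both doses.

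Among the inhibitors, NFKBIA (IkB-alpha, the main quick feedback inhibitor) had signals of 3148, 3009 and 3471 in DMSO, 5232, 4372 and 4618 at 0.1 µM, and 5756, 7311 and 5870 at 1.0 µM. No group overlapped another. The gene rose by 0.56 ± 0.12 at 0.1 µM (adjusted p = 0.00774, limma) and by 0.97 ± 0.12 at 1.0 µM (adjusted p = 8.44e-05, limma). This was the smallest of the 6 rises at both doses, and at 0.1 µM its fold of 1.47, on the scale of signal + 16, lay under 1.5. The other 5 rises exceeded that fold at 0.1 µM, where 4.12% of all tested genes were called higher with a fold of at least 1.5. The other NFKBIA probe set was under the filter, with 18.3 to 67.1 over the arrays.

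NFKBIE encodes IkB-epsilon, an inhibitor that acts mostly on RELA and REL dimers. Its signals were 503, 653 and 553 in DMSO, 1305, 1023 and 1453 at 0.1 µM, and 1134, 1515 and 1227 at 1.0 µM. Both doses lay above DMSO and overlapped each other. The rise was 1.12 ± 0.15 at 0.1 µM (adjusted p = 0.000473, limma) and 1.16 ± 0.15 at 1.0 µM (adjusted p = 0.000177, limma). The difference between doses was 0.04 (95% interval -0.29 to 0.37).

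TNFAIP3 had signals of 282, 225 and 328 in DMSO, 486, 653 and 502 at 0.1 µM, and 670, 659 and 667 at 1.0 µM. The 3 groups did not overlap, and the 1.0 µM arrays lay close together (SD 5.34, n = 3). TNFAIP3 rose by 0.94 ± 0.15 at 0.1 µM (adjusted p = 0.00167, limma) and by 1.23 ± 0.15 at 1.0 µM (adjusted p = 0.000117, limma). Its other probe set rose by 0.77 ± 0.14 and 0.99 ± 0.14.

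ICAM1, an adhesion molecule that binds leukocyte integrins and a classical NF-kB target, had the largest change of the 9 genes at both doses. Its signals were 894, 1035 and 1196 in DMSO, 3780, 3030 and 3332 at 0.1 µM, and 4216, 5810 and 4218 at 1.0 µM. The groups did not overlap. ICAM1 rose by 1.69 ± 0.15 at 0.1 µM (adjusted p = 1.9e-05, limma) and by 2.16 ± 0.15 at 1.0 µM (adjusted p = 1.37e-06, limma), at rank 55 and rank 37 from the top of all tested genes. All 3 ICAM1 probe sets rose alike, by 1.58 to 1.69 at 0.1 µM and by 2.02 to 2.16 at 1.0 µM.

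**Figure D2:**
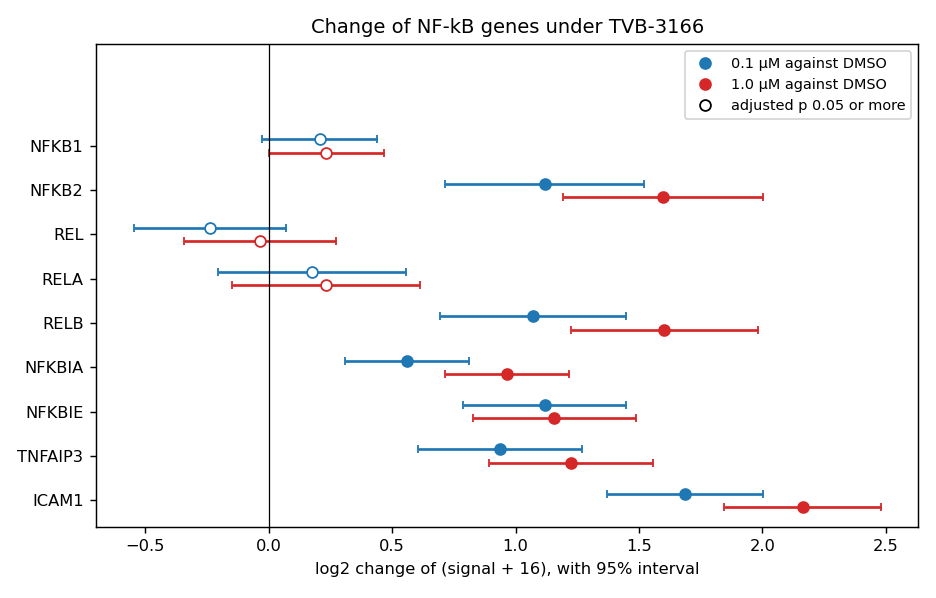
Log2 change of (signal + 16) against DMSO for each gene at 0.1 µM (blue) and 1.0 µM (red), with 95% intervals from limma (n = 3 arrays per group); open points have an adjusted p of 0.05 or more. The 6 genes with filled points rose at both doses, from 0.56 for NFKBIA at 0.1 µM to 2.16 for ICAM1 at 1.0 µM.

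Probe sets of the same gene gave the same call in each case. In a fit of all 26873 single-gene probe sets above the filter, 10 of the 18 member probe sets were called higher at each dose, where 10.1% of all these probe sets were called higher at 1.0 µM and 5.19% at 0.1 µM. The 10 are the probe sets of the 6 genes that rose. Sizes differed most for NFKB2, with 1.60 and 1.06 at 1.0 µM. Probe sets with names ending in _s_at may also bind related transcripts. NFKB1, RELB and NFKBIE were read only by probe sets without that ending. The probe set that stands for REL lacks it too, as does the dimmer tested NFKB2 probe set, which was called higher at both doses.

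**Figure D3:**
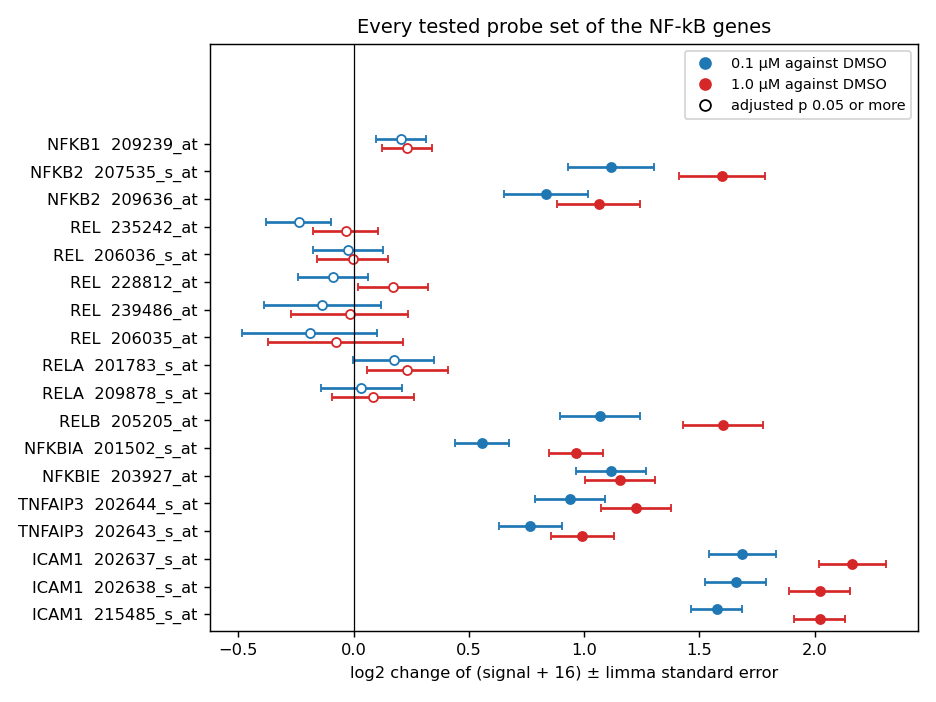
Log2 change of (signal + 16) ± limma standard error for the 18 tested probe sets at 0.1 µM (blue) and 1.0 µM (red) against DMSO; open points have an adjusted p of 0.05 or more over all probe sets. The 3 ICAM1, 2 NFKB2 and 2 TNFAIP3 probe sets are all called at both doses, and the 5 REL and 2 RELA probe sets at neither.

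Between the doses, limma called 0 of the 9 genes at 1.0 µM against 0.1 µM, where 0.817% of all tested genes were called. An unadjusted p under 0.05 was found for 4 of the 9, and the share of all tested genes at that level is not reported here. The change between doses was 0.53 ± 0.17 for RELB (adjusted p = 0.22), 0.48 ± 0.19 for NFKB2 (adjusted p = 0.313), 0.48 ± 0.15 for ICAM1 (adjusted p = 0.189) and 0.41 ± 0.12 for NFKBIA (adjusted p = 0.145). TNFAIP3 was at 0.29 (95% interval -0.05 to 0.62), REL at 0.20, RELA at 0.06 and NFKB1 at 0.03. For 6 of the 9 genes all arrays of 1.0 µM lay above all arrays of 0.1 µM, as they did for 9.73% of all tested genes. Each had 3 of 3 arrays higher: NFKB2, REL, RELB, NFKBIA, TNFAIP3 and ICAM1. NFKBIA had an adjusted p of 0.0425 after quantile normalization, where 171 genes were called in all. With array weights NFKBIA (0.0229) and ICAM1 (0.0423) were called, but so were 1953 of all 13948, and a count of 2 of 9 there is no result about these genes. Over all alternatives the adjusted p ran from 0.0174 to 0.442 for NFKBIA and from 0.00813 to 0.548 for ICAM1.

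Signals of hybridisation spikes, control RNAs added before hybridisation, divide the 9 arrays. The 4 with the higher spikes are replicate 2 of DMSO, replicate 2 of 1.0 µM, and replicates 1 and 3 of 0.1 µM, and the other 5 form the lower set; no label says that this is a batch. Of the 1.0 µM arrays, replicate 2 was the highest for 7 of the 9 genes: NFKB1, NFKB2, RELA, RELB, NFKBIA, NFKBIE and ICAM1. Within the lower set the 1.0 µM changes were 1.499 for NFKB2, 1.56 for RELB, 0.81 for NFKBIA, 1.14 for NFKBIE, 1.095 for TNFAIP3 and 2.01 for ICAM1. All 6 were called there, with 2 arrays in each of these groups. The share of all tested genes called within the lower set is not reported here, so its calls are not set against a share. The higher set holds 1 DMSO array and 1 array at 1.0 µM, so its values compare single arrays, and the only spread behind a p there is that of its 2 arrays at 0.1 µM, which is no replicate check. In the same order of genes its values were 1.797, 1.69, 1.28, 1.195, 1.49 and 2.47. RELA was at -0.000299 in the lower set (adjusted p = 0.999, limma) and at 0.70 between the single arrays of the higher set. At 0.1 µM, where the lower set holds 1 treated array, NFKBIE, TNFAIP3 and ICAM1 were called there. NFKB2 (0.97, adjusted p = 0.2), RELB (1.22, adjusted p = 0.0552) and NFKBIA (0.40, adjusted p = 0.137) were not (limma). With the spike signal as a covariate the 6 genes were called at each dose. Between the doses NFKBIA (0.46, adjusted p = 0.0242) and ICAM1 (0.57, adjusted p = 0.0227) were called as well (limma), among 328 of all 13948. The share of all genes called at each dose in that fit is not reported here. The part of the spike signal in these results was not tested.

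Other genes of the pathway were counted from 6 lists of 111 genes, of which 85 were tested. The lists, too, were chosen with earlier results of these data known. At 1.0 µM, 33 were called higher and 3 lower, and at 0.1 µM 21 higher and 2 lower, with medians of 0.23 and 0.19. In the lower spike set, with 1 array at 0.1 µM, fewer were called at that dose. List counts of the main fit are to be read against its shares over all tested genes. These were 12.3% higher and 11.0% lower at 1.0 µM and 6.89% and 5.11% at 0.1 µM. The list of the IkB kinase complex and upstream kinases with their binding partners, CHUK and IKBKB among them, gave 0 calls of 11 tested at each dose by limma, with 0 and 1 at an unadjusted p under 0.05 at 1.0 and 0.1 µM. Of 9 tested receptor genes 4 rose and 0 fell at 1.0 µM and 2 rose at 0.1 µM. At 1.0 µM the tumour necrosis factor receptor gene TNFRSF1A rose by 1.10 ± 0.16, TNFRSF12A, the TWEAK receptor gene, by 0.63 ± 0.15 and CD40 by 0.57 ± 0.13.

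Of 20 adaptor and ubiquitin ligase genes 6 rose and 2 fell at 1.0 µM, and 3 rose and 1 fell at 0.1 µM; the falls are near the share over all genes. The largest rises at 1.0 µM were in TRAF1, an adaptor of tumour necrosis factor receptors and itself an NF-kB target, by 1.67 ± 0.15. IRAK2, a kinase of interleukin-1 and Toll-like receptor signalling, rose by 1.61 ± 0.15. RBCK1, a subunit of the linear ubiquitin ligase complex, rose by 1.60 ± 0.11. MYD88, the adaptor of Toll-like receptors, fell by 0.38 ± 0.08 and UBE2N, a ubiquitin-conjugating enzyme gene, by 0.33 ± 0.09. Of 14 other inhibitor genes 3 rose and 1 fell at 1.0 µM, and 2 rose and 1 fell at 0.1 µM. TNIP1, whose product works with A20, rose by 0.75 ± 0.12, CYLD, a deubiquitinase gene, by 0.68 ± 0.13 and TNIP2 by 0.33 ± 0.09, while PDLIM2 fell by 0.96 ± 0.11.

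Target genes were counted in the same way. Of 19 tested targets that are not secreted, 10 rose and 0 fell at 1.0 µM (median 0.51) and 6 rose and 0 fell at 0.1 µM (median 0.39). IRF1, an interferon regulatory factor gene, rose by 1.83 ± 0.11, BCL2A1, an anti-apoptotic member of the BCL2 family, by 2.31 ± 0.19 (mean signal 94.9 in DMSO and 539 at 1.0 µM), and DRAM1, a lysosomal membrane protein gene, by 1.22 ± 0.12. Among 13 secreted targets 10 rose at 1.0 µM (median 1.35) and 8 at 0.1 µM (median 0.96), with 0 falls. The chemokine genes CCL5 and CXCL8 rose by 2.26 ± 0.14 and 2.63 ± 0.20. The mean signal of CXCL8 was 52.4 in DMSO, near the filter level of 38.95, and 410 at 1.0 µM. LCN2, which encodes the iron-carrier-binding lipocalin, rose by 2.63 ± 0.17 (mean signal 85.5 to 604). Of all 85 genes, CXCL8 alone was called between the doses by limma, where 0.817% of all tested genes were called. The count of called list genes was unstable. It was 0 without 1.0 µM replicate 3, 7 without 1.0 µM replicate 2 and 3 without DMSO replicate 1. The totals over all genes in those 3 fits are not reported here. After quantile normalization it was 7, with 171 of all tested genes called, and with array weights 20, with 1953.

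**Figure D4:**
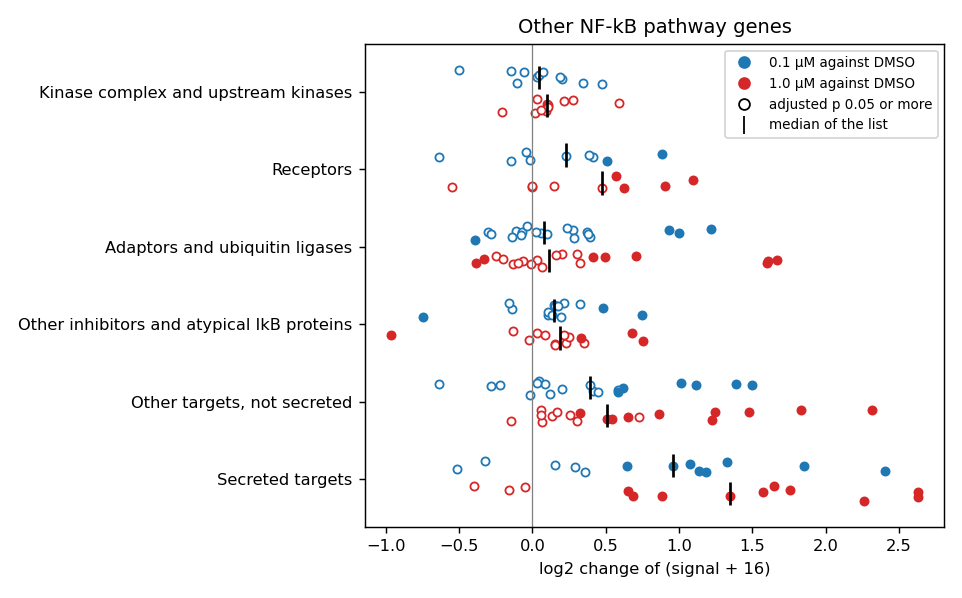
Log2 change of (signal + 16) of each tested gene in 6 lists of other NF-kB pathway genes at 0.1 µM (blue) and 1.0 µM (red) against DMSO; open points have an adjusted p of 0.05 or more, and bars mark list medians. The 11 genes of the kinase complex and upstream kinase list have no filled point, and 10 of 13 secreted targets are filled at 1.0 µM.

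All 7 markers listed for ductal epithelium and PANC-1, KRT7, KRT8, KRT18, KRT19, CDH1, EPCAM and VIM, lay above the filter level of 38.95. So did the 2 measured prostate markers, 2 of 5 fibroblast markers, 1 of 5 endothelial markers and 1 of 6 measured acinar and endocrine markers of the pancreas. Lying above that level therefore does not tell cell types apart. KRT8 (-0.86) and KRT19 (-0.90) fell at 1.0 µM and KRT7 rose (1.06), by limma. At 0.1 µM KRT7 rose by 1.11 (adjusted p = 7.52e-05) and CDH1 fell by 0.59 (adjusted p = 0.0145). NF-kB genes are also well expressed in immune cells. Of 10 measured blood and immune markers 6 lay above the filter, and by limma 0 of these were called at either dose. Their summed signal over the 10 was 572 to 776 in DMSO, 579 to 698 at 0.1 µM and 581 to 803 at 1.0 µM, ranges that overlap, and PTPRC, the leukocyte common antigen gene, had 2.6 to 39.7. The 5 endothelial markers summed to 226 to 371, 238 to 252 and 232 to 282 in the same order, and the 5 fibroblast markers to 316 to 468, 335 to 380 and 278 to 376. The 2 measured prostate markers, KLK3 and TMPRSS2, summed to 1596 to 1671 in DMSO, 1030 to 1259 at 0.1 µM and 858 to 951 at 1.0 µM. TMPRSS2 fell at both doses. KLK3 was called at neither, with -0.0055 at 1.0 µM (adjusted p = 0.988, limma) and -0.21 at 0.1 µM (adjusted p = 0.495, limma). The part of these shifts in the results on NF-kB genes was not tested. Fewer cells and less RNA per cell cannot be told apart in such bulk samples.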

How the data were processed

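The deposited values are linear intensities, 1 signal per probe set and array, made by the authors with MAS5 (no version given), per the submitters' processing notes. Each array's deposited values have a 2% trimmed mean of 500.1, a common scale for all arrays; their number limits the precision. Signals were taken as log2(signal + 16) with no further normalization. Probe sets with 1 gene symbol (41091 of 54675, with symbols updated by Entrez identifier through the RefSeq annotation of GRCh38.p14 for 41037) were kept when their mean log2 level lay above the 40th percentile, a signal of about 38.95. The probe set with the highest mean stood for a gene, which gave 13948 tested genes. All 9 arrays entered 1 linear model with a coefficient per group in limma 3.58.1 under R 4.3.3 (eBayes with an intensity trend), and the 3 pairs of groups were compared. The procedure was tested on simulated data. No batch was modelled in the main analysis. The same-numbered arrays of different groups did not deviate together, so numbers were not used as pairs. Members and gene lists were chosen with earlier results of these data known. From each list of other pathway genes, the text names the called genes with the smallest p at 1.0 µM, up to 3 in each direction. The alternatives were other added constants, filters, normalizations, probe set summaries, eBayes settings, array weights, blocks, spike sets, a fold threshold and leaving out each array. Design text on 22Rv1 cells was not used here.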

Additional observations from a re-analysis of the deposited data

How the results depend on the processing

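In 26 alternatives, 9 of which leave out 1 array each, the count of members called at 1.0 µM against DMSO stayed at 6, except for 7 in the higher spike set alone, where RELA was added and 1 DMSO array is set against 1 array at 1.0 µM, which is no replicate check. At 0.1 µM it was 6, except for 5 with a fold of at least 1.5 required as well and 3 in the lower spike set alone, which holds 1 array of that dose, assumed to vary like the others. Without any 1 array the counts were 6 to 6 at either dose, 0 to 0 between the doses and 10 to 10 member probe sets. The totals over all genes differ between fits. Without DMSO replicate 1, 2628 genes were called at 1.0 µM against DMSO. The other totals without 1 array are not reported here, so these member counts are not set against shares. Between the doses, where 0 were called, the count was 1 after quantile normalization (171 genes called in all), 2 with array weights (1953), 2 with the spike signal as a covariate (328) and 4 in the higher spike set alone (304), where the 1.0 µM group is 1 array; the main analysis called 114. At 1.0 µM against DMSO the number of all genes called moved as well. It was 3240 in the main analysis, 2550 with the replicate block and 4696 with array weights. The cause of these moves was not tested. With the replicate block the counts were 6, 6 and 0, and 10 probe sets. In the same order of comparisons, 2550, 1137 and 23 of all tested genes were called in that fit. The numbers did not pair the arrays (correlation of same-numbered deviations -0.3385 to 0.2171). Changes of sign touched only values that were not called in the main analysis. REL at 1.0 µM was at 0.0069 with probe sets averaged per gene and 0.13 in the higher spike set, and from -0.13 to 0.13 without single arrays. RELA at 1.0 µM was at -0.000299 in the lower spike set. Between the doses, median centring gave -0.023 for NFKB1 and -0.0106 for NFKBIE, array weights gave -0.0841 for NFKB1, -0.128 for RELA and -0.11 for NFKBIE, and the lower spike set gave -0.0703 for NFKB1 and -0.0476 for RELA. Without single arrays these 3 ranged from -0.0777 to 0.10 (NFKB1), -0.14 to 0.18 (RELA) and -0.10 to 0.15 (NFKBIE). Dim signals limit the 2 member probe sets under the filter, which were not tested.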
